A study of Homo sapiens with 33 samples.

Results

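The genes described here are antisense noncoding genes, taken as the rows of a human count table whose Ensembl identifier maps to a symbol ending in -AS or -AS plus a number, and whose CPM (the count as a share of the library total, scaled to a total of 1000000), averaged over 33 libraries, reached 1 or more. Of 60675 rows, 1834 carried such a symbol and 268 of these met the limit. Beyond the name they were chosen by their mean level alone, so their mean levels are given as a description and no test rests on them. CBLL1-AS1 at 1.03 CPM, ARRDC3-AS1 at 1.02 CPM and INTS6-AS1 at 1.01 CPM lay just inside the limit. SSBP3-AS1 at 0.9996 CPM, URB1-AS1 at 0.998 CPM and BCDIN3D-AS1 at 0.982 CPM lay just outside it. All 268 had counts in every one of the 33 libraries, and all 268 passed the filter on low counts and were tested.

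The libraries came from HT29, a human colorectal adenocarcinoma cell line, kept for 24 h with 1 of 4 herbal formulas or with vehicle. Each formula was given as a 70% ethanol extract at a high (500 µg/mL), medium (100 µg/mL) or low (20 µg/mL) dose. Sagunja-tang and Samul-tang had 2 libraries per dose, and Palmul-tang and Sibjeondaebo-tang had 3 libraries per dose. Where a value is given for each of the 4 extracts without naming them, the order is Sagunja-tang, Samul-tang, Palmul-tang, Sibjeondaebo-tang. The vehicle group had 3 libraries at 0.1% DMSO by the sample labels, while the design text of the series gives another percentage. No group carried a genetic change, and nothing in the labels says that replicates were separate cultures, so p-values measure the spread between these libraries, which may be technical.

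An antisense gene is transcribed from the DNA strand opposite to another gene, the sense gene, after which it is named. Some start at the promoter of the sense gene and run the other way, some overlap its end, and some lie inside it. Many antisense transcripts stay in the nucleus and are short-lived, some act on the gene across from them, some act elsewhere as long noncoding RNAs, and for most no function is known.

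Library totals ran from 28.6 to 49.1 M (M for 1000000) counts, so that 1 CPM stood for 28.6 to 49.1 counts. Of the colon epithelial markers, 9 of 10 reached 1 CPM, and their summed level was 11493 to 14030 CPM. Summed levels of fibroblast, leukocyte and endothelial markers were 1.71 to 2.80, 3.16 to 8.94 and 1.87 to 2.94 CPM. The mean share of mitochondrial counts was highest in the vehicle libraries, at 10.0% ± 1.36 (SD, n = 3) against group means of 6.27% to 8.11% for the extracts. The sample titles name batch E for every library, vehicle included. The sample codes of the vehicle libraries, however, had another leading code than those of the extracts. Sagunja-tang and Samul-tang shared one leading code, Palmul-tang and Sibjeondaebo-tang another, and the labels do not say what it stands for. A comparison of high with low dose of 1 extract thus stayed within 1 leading code, whereas in every comparison with vehicle the code and the treatment cannot be told apart. The high-dose Sagunja-tang library 2 stood apart in how its counts followed gene length (Spearman -0.397 across genes, against -0.265 to 0.265 in the other libraries).

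Promoters were taken from RefSeq (build GRCh38.p14, 250 bases before to 50 bases after a start), which held windows for 202 of the 268 genes. Windows are shown for 4 genes named in the results below, and no test used the windows. MNX1-AS1 belongs to a pair that runs apart from a shared promoter, of which the antisense gene alone was called. NUP153-AS1 rose together with its sense gene. PXN-AS1 had the largest rise against vehicle, and TNFRSF14-AS1 fell with dose in all 4 extracts. Each window is written 5′ to 3′ on the strand of the antisense gene, and capitals mark the 50 bases that follow the RefSeq start. That start lies 52, 127, 0 and 20 bases, in the order shown, from the GENCODE 29 start used for the layouts below.
MNX1-AS1: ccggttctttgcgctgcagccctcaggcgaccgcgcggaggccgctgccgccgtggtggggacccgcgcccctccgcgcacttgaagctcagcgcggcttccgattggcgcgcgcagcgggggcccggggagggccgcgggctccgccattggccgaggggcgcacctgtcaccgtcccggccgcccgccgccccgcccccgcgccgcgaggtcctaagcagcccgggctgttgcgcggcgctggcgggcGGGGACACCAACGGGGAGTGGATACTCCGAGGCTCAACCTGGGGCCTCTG
NUP153-AS1: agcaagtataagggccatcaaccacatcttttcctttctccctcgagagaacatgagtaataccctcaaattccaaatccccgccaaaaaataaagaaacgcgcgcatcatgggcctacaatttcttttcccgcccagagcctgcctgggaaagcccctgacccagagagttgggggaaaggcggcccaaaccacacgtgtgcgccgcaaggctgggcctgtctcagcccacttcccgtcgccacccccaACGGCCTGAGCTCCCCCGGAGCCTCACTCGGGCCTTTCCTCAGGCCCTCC
PXN-AS1: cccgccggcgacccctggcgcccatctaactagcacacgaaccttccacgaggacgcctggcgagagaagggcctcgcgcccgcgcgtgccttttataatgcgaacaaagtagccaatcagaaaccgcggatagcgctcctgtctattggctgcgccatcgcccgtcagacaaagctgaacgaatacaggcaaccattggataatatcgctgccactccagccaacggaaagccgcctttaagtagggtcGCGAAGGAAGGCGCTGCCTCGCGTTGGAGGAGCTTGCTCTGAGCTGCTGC
TNFRSF14-AS1: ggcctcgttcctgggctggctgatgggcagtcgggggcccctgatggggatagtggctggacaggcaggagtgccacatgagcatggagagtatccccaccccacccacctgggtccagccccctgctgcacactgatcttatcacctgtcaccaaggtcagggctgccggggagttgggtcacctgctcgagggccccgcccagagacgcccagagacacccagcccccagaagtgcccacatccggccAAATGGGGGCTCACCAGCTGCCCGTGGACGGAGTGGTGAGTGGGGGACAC

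The windows lie at chr7:157010607-157010906 on the plus strand, chr6:17705880-17706179 on the plus strand, chr12:120201041-120201340 on the plus strand and chr1:2556962-2557261 on the minus strand. The MNX1-AS1 window shares 293 of its 300 bases with the window of MNX1, a homeobox transcription factor gene on the opposite strand, so both genes read from nearly the same stretch. Of 173 pairs with windows for both genes, 50 had windows that overlapped on opposite strands in this way. MNX1-AS1 held 44 CG dinucleotides and PXN-AS1 held 29, against 15 in NUP153-AS1 and 9 in TNFRSF14-AS1. The median was 23 over the 257 windows of the antisense genes and 14 over all 35116 windows in the table. Searched on both strands, the CCAAT box (CCAAT) matched 3 times in PXN-AS1, 2 times in MNX1-AS1 and not in the other two windows. It was present in 34.6% of all windows and in 28.8% of those of the antisense genes. The TATA box sequence (TATAAA) matched once, in PXN-AS1, on the strand opposite to the antisense gene and well before its start. It was present in 11.5% of all windows and 6.23% of those of the antisense genes. The core of the antioxidant response element (TGACNNNGC), found in 13.3% of all windows and 17.9% of the antisense ones, matched in none of the 4.

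The antisense genes were expressed at low levels. Their median mean level was 2.81 CPM, against 13.6 CPM for the 17432 genes tested, and 91 lay below 2 CPM, 130 between 2 and 10 CPM and 47 at 10 CPM or more. AFAP1-AS1, which overlaps the 3′ end of the gene of an actin filament associated protein, was the highest at 123.7 CPM. OIP5-AS1 at 110.7 CPM and FGD5-AS1 at 110.3 CPM, both well-described long noncoding RNAs, and GABPB1-AS1 at 69.6 CPM followed. These 4 genes made up 22% of the summed level of the 268. PAX8-AS1 at 47.4 CPM, THAP9-AS1 at 46.3 CPM, TNS2-AS1 at 42.0 CPM and PSMA3-AS1 at 34.9 CPM came next.

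A single sense gene was found for 263 of the 268 genes (258 distinct sense genes). The 5 others are named for the HOXA or HOXB cluster as a whole. By GENCODE 29 positions, 120 antisense genes overlapped the 5′ end of the sense gene, 61 its 3′ end, 44 lay inside it, 22 spanned it, and 14 ran head to head from it without overlap. IGFL2-AS1 lay tail to tail with its sense gene at a distance, and FAM131B-AS2 lay on the same strand as FAM131B, which goes against the name. KRT10-AS1 and DIP2C-AS1 are protein-coding in that annotation. Exons overlapped on opposite strands in 211 pairs. The library kit keeps strand by its name, but the strand setting of the counting is not given in the sources used here, so reads of shared exons cannot be told apart with certainty.

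Per kilobase of exon, the antisense gene reached a median of 21.9% of the level of its sense gene over 262 pairs. It was above the sense gene in 60 pairs and below 10% of it in 88. Median ratios of level per kilobase were 14.0% for 5′ overlaps, 21.5% for 3′ overlaps, 41.0% for genes inside, 48.4% for head-to-head pairs and 161.5% for spanning genes. Among the pairs far above equal levels, the sense gene was near 0. SLC9A3, the intestinal sodium-proton exchanger, had a mean of 0.0742 CPM, against 12.03 CPM for SLC9A3-AS1. DLGAP1, a gene of the synapse, had 0.0888 CPM, against 23.2 CPM for DLGAP1-AS2.

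**Figure D1:**
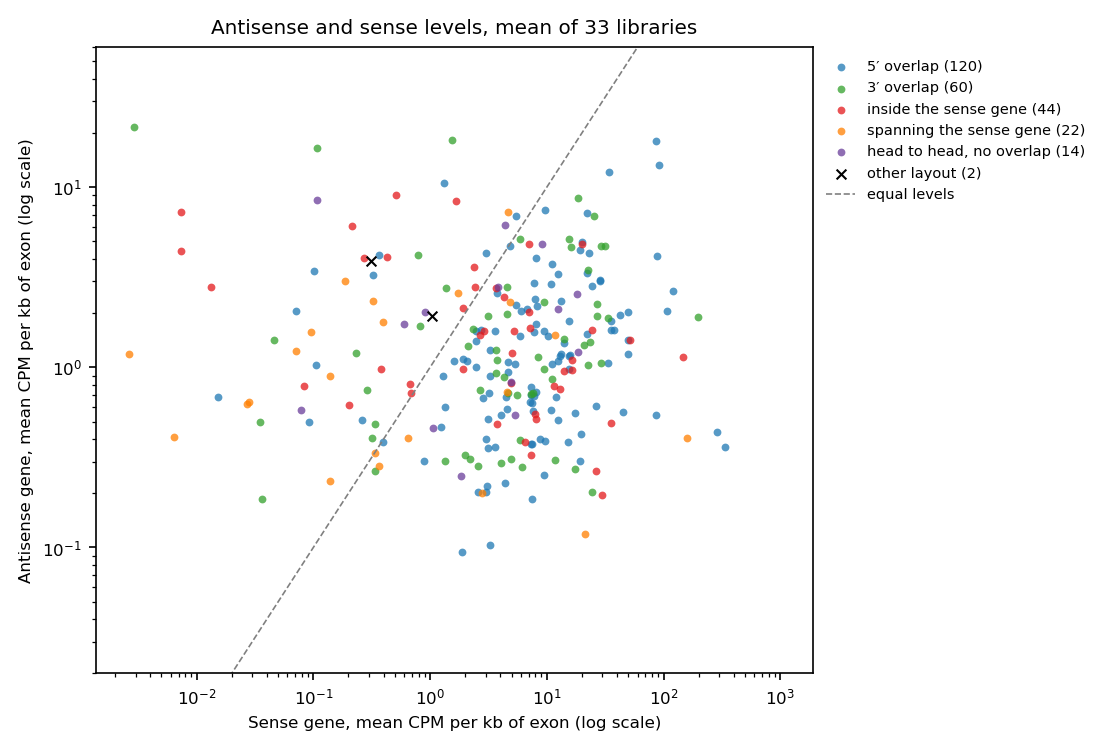
Each point is 1 antisense gene, with the mean CPM per kilobase of exon of its sense gene on the x axis and its own on the y axis (both log scales, mean of 33 libraries), coloured by layout. Of 262 pairs, 60 lie above the dashed line of equal levels.

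To ask whether the extracts moved antisense genes as a group, levels were first summed over the 268 genes in each library. The sum was 1877, 1878 and 1895 CPM in the vehicle libraries. At the low dose it was 1976 ± 7.34 (SD, n = 2) for Sagunja-tang, 1945 ± 10.6 (n = 2) for Samul-tang, 1933 ± 12.3 (n = 3) for Palmul-tang and 1933 ± 14.0 (n = 3) for Sibjeondaebo-tang. These sums depended on the scaling. In CPM, all tested genes tended to lie above vehicle at the low dose: 36.6%, 33.8%, 24.5% and 24.9% of them had every low-dose library above every vehicle library for the 4 extracts in that order, and 14.1%, 15.1%, 10.3% and 11.7% had every one below. With TMM effective library sizes, an alternative chosen after seeing the data, the sum was 1899 to 1966 in vehicle and 1901 to 1932 in the low-dose libraries of all 4 extracts. The groups then overlapped, so no difference in the summed level between low dose and vehicle is reported.

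At the high dose the 3 Sibjeondaebo-tang libraries had 1632, 1691 and 1677 CPM, below every other library of the series. The high-dose Palmul-tang libraries, at 1813, 1841 and 1832 CPM, lay below all low-dose libraries too. Sagunja-tang at 1862 and 1914 CPM and Samul-tang at 1897 and 1871 CPM lay below their low-dose libraries by a smaller step. Medium-dose Sibjeondaebo-tang, at 1830, 1855 and 1832 CPM, stood between its low and its high dose. With TMM sizes the steps between high and low dose were smaller: high-dose Sibjeondaebo-tang had 1715 to 1755, again below every other library, and high-dose Palmul-tang had 1837 to 1875, below all low-dose libraries. The difference between the mean sums at high and low dose was -266.03 in CPM and -177.1 with TMM sizes for Sibjeondaebo-tang. Without the 4 highest genes, the Sibjeondaebo-tang sum was 1283 ± 33.3 (SD, n = 3) at the high dose and 1517 ± 20.1 (n = 3) at the low dose, so the difference was there without them. The summed level is a share of the counts in a bulk library, not an amount of RNA. Fewer expressing cells, less of these RNAs per cell and more of other RNAs cannot be told apart here.

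**Figure D2:**
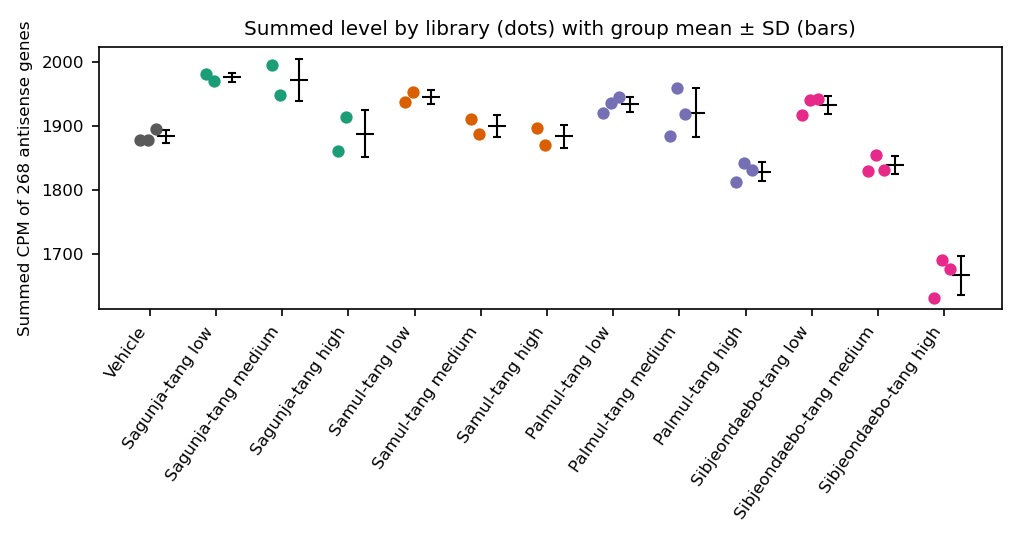
Dots are the summed CPM of the 268 antisense genes in each library (y axis, not starting at 0) by group (x axis), with a bar for the group mean ± SD beside them. The 3 high-dose Sibjeondaebo-tang libraries, at 1632 to 1691 CPM, are the lowest of the 33.

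Gene by gene, high-dose Sibjeondaebo-tang had 75 antisense genes lower and 4 higher than low-dose Sibjeondaebo-tang (edgeR's quasi-likelihood test, Benjamini-Hochberg adjusted p under 0.05 over all genes tested). Among all tested genes 29.9% were called in this comparison, 14.3% lower and 15.5% higher, while 28.0% of the antisense genes were called lower and 1.49% higher. The median log2 fold change was -0.19 for the antisense genes, -0.01 for all genes and 0.01 for the sense genes. Other noncoding classes had medians of similar size, with smaller shares called lower. The other long noncoding genes and the -DT genes below were taken without the limit of 1 CPM. The shares called are thus not matched in level between the classes, and the part of level in them was not tested. Of 2073 other long noncoding genes, 15.7% were called lower and 1.16% higher, with a median of -0.25. Of 229 divergent transcripts with a -DT symbol, 13.1% were called lower and 0 higher by edgeR (2 higher at an unadjusted p under 0.05), with a median of -0.21. Of the 287 tested antisense genes under the level limit, 7.32% were called lower and 0 higher by edgeR (0 also at an unadjusted p under 0.05), with a median of -0.20. The shares called lower in these classes were near or below the 14.3% of all genes, and the shares called higher were below the 15.5% of all genes. Lower counts were seen in each layout, with 38 of 120 genes that overlap the 5′ end, 15 of 61 at the 3′ end, 11 of 44 inside, 5 of 22 spanning and 3 of 14 head to head. Leaving out any 1 of its 6 libraries gave 57 to 73 called antisense genes, and DESeq2 called 62 lower and 4 higher.

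In the other 3 extracts, few antisense genes passed the test between high and low dose. Palmul-tang had 5 higher and 11 lower (14.4% of all genes called, 7.66% higher and 6.75% lower). Sagunja-tang had 0 higher and 7 lower by edgeR (7.19% of all genes, 3.33% higher and 3.86% lower), with 7 higher and 30 lower at an unadjusted p under 0.05, and DESeq2 gave 0 higher and 5 lower. Samul-tang had 1 higher and 6 lower (7.53% of all genes, 4.1% higher and 3.43% lower). Medians were -0.07, -0.08 and -0.05 for Palmul-tang, Sagunja-tang and Samul-tang. With only the groups compared in the fit, Sagunja-tang had 0 called antisense genes and 0 called genes in all, and Samul-tang had 5 antisense genes higher and 7 lower. Without the filter on low counts, Sagunja-tang and Samul-tang had 11 called antisense genes each. The Sagunja-tang count also depended on single libraries: it was 0 without high-dose library 2, 36 without high-dose library 3, and 1 without either low-dose library. Samul-tang gave 2 without low-dose library 2 or high-dose library 3. Palmul-tang gave 10 without high-dose library 1.

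The dose effect of Sibjeondaebo-tang was compared with that of Palmul-tang in the same model, since both had 3 libraries per dose and the same leading code. The change from low to high dose was lower in Sibjeondaebo-tang for 7 antisense genes, where 1.45% of all genes were called and 1.42% were lower. No other tool or alternative fit was run on this comparison. Among all genes, 247 of the 252 called were lower too. At an unadjusted p under 0.05 there were 41 antisense genes (15.3%), 40 of them lower (14.9%), against 10.8% of all genes, 7.08% lower. SLC9A3-AS1, which lies inside the exchanger gene, had 12.8, 14.3 and 15.3 CPM at the low dose of Sibjeondaebo-tang and 6.57, 7.10 and 7.14 CPM at the high dose. In Palmul-tang it had 12.5, 13.9 and 14.8 CPM at the low dose and 12.6, 12.02 and 10.9 CPM at the high dose. The groups were fully apart in Sibjeondaebo-tang and overlapped in Palmul-tang, and the log2 fold changes were -0.95 ± 0.09 (SE) and -0.17 ± 0.09. The vehicle libraries, at 8.27, 7.97 and 7.63 CPM, lay below every extract library except those of high-dose Sibjeondaebo-tang.

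GABPB1-AS1 starts 449 bases from the start of GABPB1, inside it, and shares 424 exon bases with it. GABPB1 codes for a subunit of an ETS-family transcription factor. GABPB1-AS1 had 76.0, 71.8 and 74.3 CPM at low-dose and 49.0, 50.2 and 50.1 CPM at high-dose Sibjeondaebo-tang, a log2 fold change of -0.50 ± 0.05 (SE, adjusted p = 3.79e-09). In Palmul-tang it went from 72.0, 72.9 and 71.4 to 65.0, 66.4 and 67.4 CPM, a change of -0.08 ± 0.04 that did not pass. GABPB1 itself, at 45.7, 44.4 and 47.0 CPM and then 47.7, 43.6 and 43.9 CPM in Sibjeondaebo-tang, overlapped between the doses and was not called (0.06 ± 0.05).

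SLC25A25-AS1, across the 3′ end of the gene of a mitochondrial ATP carrier, showed the same arrangement. Its low-dose libraries of Sibjeondaebo-tang had 34.0, 35.3 and 35.4 CPM and the high-dose ones 24.6, 23.9 and 23.6 CPM (-0.46 ± 0.05 SE, adjusted p = 2.75e-08). The change in Palmul-tang was -0.00 ± 0.05, and SLC25A25 was not called in Sibjeondaebo-tang (0.06 ± 0.08). By contrast AP1G2, the gene of an adaptor protein subunit, was lower at the high dose of Sibjeondaebo-tang (-0.40 ± 0.05), next to -0.79 ± 0.11 for AP1G2-AS1, with which it shares 2700 exon bases.

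The dose effect of Samul-tang was likewise compared with that of Sagunja-tang. edgeR called 0 of the 268 antisense genes in this comparison, where 0.138% of all genes were called. At an unadjusted p under 0.05 there were 18 (6.72%), of which 6 were lower in Samul-tang, against 11.1% of all genes, and no other tool was run on it.

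Averaged over the 4 extracts, 9 antisense genes were higher and 84 lower at the high than at the low dose, or 34.7% called against 38.5% of all genes (19.6% higher and 18.9% lower). The share called was thus near that of all genes, and the directions differed: the median was -0.10 for the antisense genes, of which 76.1% had a negative value, and -0.01 for all genes, of which 51.9% did. The count was 53 without the libraries numbered 2 and 58 without those numbered 3. Taken singly, the 4 extracts shared 3 genes called lower at the high dose, HOXA-AS2, IGFL2-AS1 and TNFRSF14-AS1, or 1.12% of them, against 1.28% of all genes. That count needs the Sagunja-tang calls, of which 0 are left without its high-dose library 2.

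IGFL2-AS1 fell furthest with dose. IGFL2 is a member of a small family of insulin growth factor-like secreted proteins, and the antisense gene, annotated at chromosome 19, 46189166 to 46203083, minus strand (GRCh38), ends 27866 bases away from it. IGFL2-AS1 had 9.09, 9.26 and 9.30 CPM in vehicle. At the low dose it had 8.31 and 8.10 CPM in Sagunja-tang, 8.89 and 9.40 in Samul-tang, 8.57, 7.997 and 9.51 in Palmul-tang and 9.95, 9.27 and 8.47 in Sibjeondaebo-tang. At the high dose it had 3.85 and 5.93, 6.12 and 5.70, 3.86, 4.15 and 4.16, and 3.92, 4.18 and 3.44 CPM in the same order. High-dose libraries lay below all low-dose and all vehicle libraries in each extract, and the medium-dose libraries, at 4.82 to 7.00 CPM, lay below the low-dose ones.

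The averaged log2 fold change of IGFL2-AS1 was -0.89 ± 0.06 (SE, adjusted p = 1.09e-11), and it was -1.19 ± 0.11 in Sibjeondaebo-tang and -1.05 ± 0.11 in Palmul-tang. IGFL2 went the other way: it averaged 0.763 CPM over the libraries and rose by 0.69 ± 0.13 from low to high dose (adjusted p = 0.000151). Taken singly, only Palmul-tang passed for IGFL2 (1.09 ± 0.25).

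TNFRSF14-AS1 starts 1392 bases from the start of TNFRSF14, inside it, the gene of a receptor of the tumour necrosis factor family. TNFRSF14-AS1 had 4.13 and 4.47 CPM at low-dose and 2.86 and 3.12 at high-dose Sagunja-tang, 3.99 and 4.16 and then 2.58 and 2.69 in Samul-tang, 4.65, 3.75 and 4.82 and then 2.82, 2.75 and 2.88 in Palmul-tang, and 3.13, 4.02 and 4.76 and then 1.98, 2.49 and 2.00 in Sibjeondaebo-tang. No high-dose library reached the low-dose libraries of its extract, while the vehicle libraries at 2.72, 2.94 and 3.14 CPM lay near the high-dose ones. The averaged change was -0.62 ± 0.07 (SE, adjusted p = 2.43e-08). TNFRSF14 fell as well, by 0.34 ± 0.03, and both genes were higher than vehicle at the low dose of all 4 extracts (0.38 to 0.53 for TNFRSF14-AS1 and 0.46 to 0.52 for TNFRSF14, log2). Their exons overlap by 831 bases.

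KLRK1-AS1 spans KLRK1, which codes for the lymphocyte receptor NKG2D. It had 3.40, 3.45 and 3.70 CPM in vehicle and 1.57, 2.04 and 1.99 CPM at high-dose Sibjeondaebo-tang, and every high-dose library of the 4 extracts, at 1.57 to 2.28 CPM, lay below every vehicle library. Against vehicle the high dose gave -0.80 ± 0.13, -0.90 ± 0.13, -0.86 ± 0.12 and -0.89 ± 0.12 (log2, SE) for the 4 extracts in that order. The averaged dose change was -0.53 ± 0.07. LHFPL3-AS2 (-0.57 ± 0.08), LMNTD2-AS1 (-0.48 ± 0.09), SLCO4A1-AS2 (-0.47 ± 0.10), HOXB-AS2 (-0.43 ± 0.11) and SNAI3-AS1 (-0.42 ± 0.09) completed the 8 largest falls with dose. Of these, SLCO4A1-AS2 was not called without the libraries numbered 2 (-0.32, adjusted p = 0.0744) and SNAI3-AS1 was not called without those numbered 3 (-0.30, adjusted p = 0.0728).

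Among the 7 genes named for the HOX clusters, whose transcription factors pattern the body axis, 6 were lower at the high dose on average over the extracts, where 31.3% of all 268 antisense genes and 18.9% of all genes were. HOXA-AS2 fell by 0.23 ± 0.03, and HOXA11-AS fell by 0.21 ± 0.04. HOXA10-AS, at 0.02 ± 0.04, was not called. These genes lie in 2 clusters, so they are not independent of each other.

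Rises with dose were fewer and smaller. The largest averaged rise was that of SLC7A11-AS1, which overlaps the end of SLC7A11, the gene of the cystine-glutamate antiporter and a known target of the oxidative stress response. Its low-dose libraries had 2.02 and 1.42 CPM in Samul-tang, 1.78, 1.51 and 1.15 in Palmul-tang and 1.55, 1.07 and 1.01 in Sibjeondaebo-tang. The high-dose libraries had 2.75 and 2.89, 2.57, 2.57 and 2.30, and 2.23, 1.79 and 1.92 CPM. In Sagunja-tang the low-dose libraries had 1.79 and 1.60 CPM and the high-dose ones 0.679 and 1.88. High and low dose were apart in 3 extracts and overlapped in Sagunja-tang.

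The averaged change of SLC7A11-AS1 was 0.49 ± 0.12 (SE, adjusted p = 0.00187), and without the libraries numbered 3 it was 0.12 (adjusted p = 0.514). That setting leaves Sagunja-tang with the libraries numbered 2 only, the high-dose one of which had the 0.679 CPM. Without that high-dose library alone the averaged change was 0.61, and without all libraries numbered 2 it was 0.71. The cause of these shifts was not tested. SLC7A11 rose by 0.76 ± 0.02 on average, and its change was 0.42, 1.03, 0.78 and 0.80 in the 4 extracts in that order. The exons of the 2 genes share 865 bases and SLC7A11-AS1 had 1.58% of the level of SLC7A11 per kilobase. The part of reads from SLC7A11 in the antisense count was not tested.

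NUP153-AS1 overlaps the start of NUP153, which codes for a nuclear pore protein. It rose by 0.27 ± 0.07 (SE, adjusted p = 0.00329) and NUP153 by 0.17 ± 0.03, and the antisense call was lost without the libraries numbered 3 (0.17, adjusted p = 0.1102). In the pair with the shared promoter, MNX1-AS1 rose by 0.24 ± 0.05 (adjusted p = 0.000186) while MNX1 was at -0.01 ± 0.03 and was not called. MNX1-AS1 had 4.94, 6.12 and 5.15 CPM in vehicle, against 6.69 and 7.28, 6.40 and 8.11, 7.04, 7.45 and 6.66, and 6.95, 6.95 and 6.52 CPM in the high-dose libraries of the 4 extracts in that order. All 10 high-dose libraries lay above the vehicle libraries, and each of the 4 high-dose comparisons with vehicle was called, at 0.32 to 0.40. The Sagunja-tang call was lost without its high library 3 (0.27, adjusted p = 0.116), without vehicle library 1 (0.26, adjusted p = 0.0684) or with only the groups compared (0.33, adjusted p = 0.119). The Samul-tang call was lost without its high library 3 (0.20, adjusted p = 0.227) or with only the groups compared (0.39, adjusted p = 0.0587). MNX1 had 16.8, 17.01 and 17.8 CPM in vehicle and 17.1 to 19.8 CPM at the high doses, so that its vehicle and high-dose libraries overlapped. The remaining rises were DLGAP1-AS2 (0.19 ± 0.03), EMC3-AS1 (0.19 ± 0.05), MAP3K4-AS1 (0.16 ± 0.06), DHRS4-AS1 (0.12 ± 0.03), AFAP1-AS1 (0.12 ± 0.04) and BCAN-AS1 (0.09 ± 0.03), the last of which is outside the 8 largest and was named after its value was seen. The call was lost without the libraries numbered 2 for EMC3-AS1 (0.14, adjusted p = 0.160), MAP3K4-AS1 (0.13, adjusted p = 0.256) and DHRS4-AS1 (0.12, adjusted p = 0.0847). It was lost without those numbered 3 for MAP3K4-AS1 (0.12, adjusted p = 0.317), DHRS4-AS1 (0.10, adjusted p = 0.113) and AFAP1-AS1 (0.09, adjusted p = 0.131), and without those numbered 1 for AFAP1-AS1 (0.10, adjusted p = 0.05003). BCAN-AS1 was not called without the libraries numbered 2 (0.07, adjusted p = 0.178), without the high-dose Sagunja-tang library 2 alone (0.05, adjusted p = 0.114) or without the filter on low counts (0.08, adjusted p = 0.0622).

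**Figure D3:**
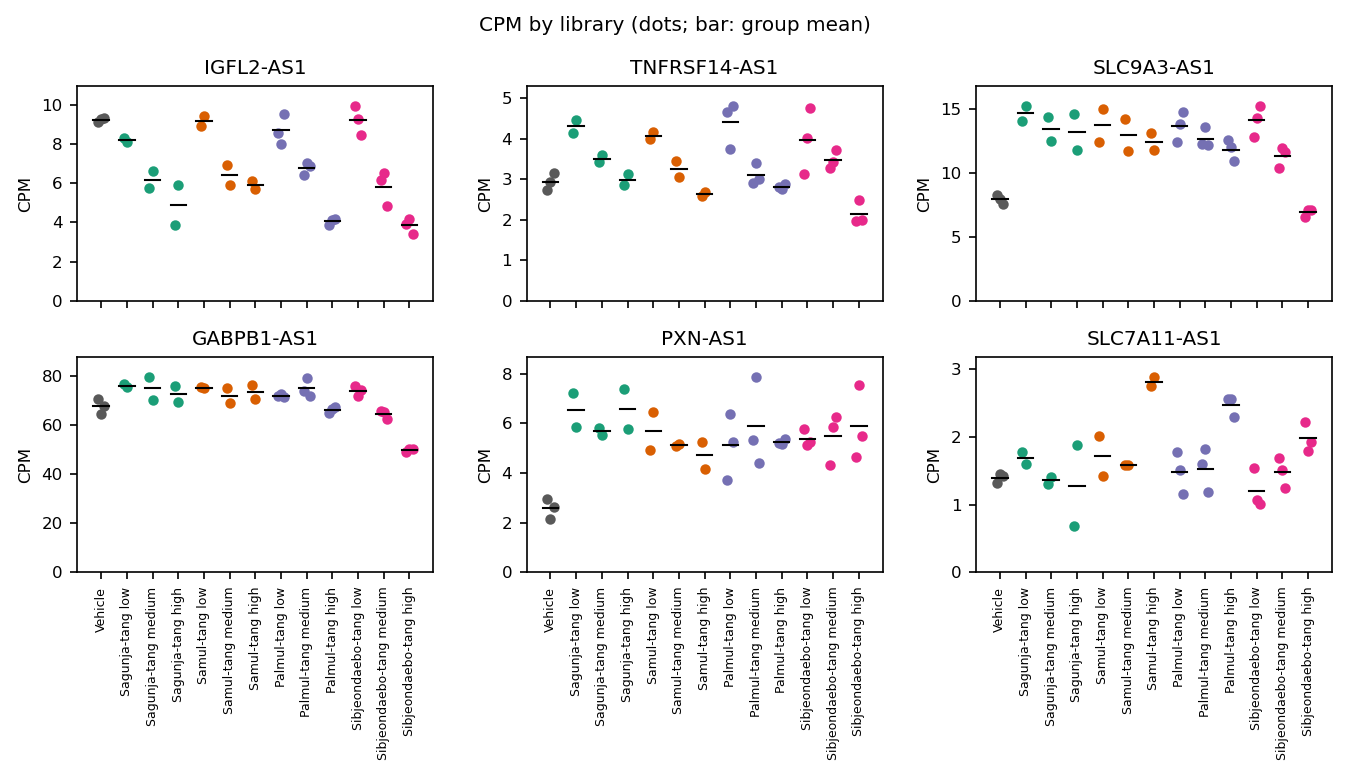
CPM of 6 antisense genes in each library (dots, y axes from 0) by group, with a bar at the group mean. IGFL2-AS1 and TNFRSF14-AS1 step down with dose in every extract, SLC9A3-AS1 and GABPB1-AS1 are low at the high dose of Sibjeondaebo-tang, and PXN-AS1 is higher in all extract libraries than in vehicle.

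Against vehicle, the high doses gave 19 antisense genes higher and 45 lower for Sagunja-tang, where 36.7% of all genes were called, 18.7% higher and 18% lower. Samul-tang gave 22 higher and 33 lower (27.5% of all genes, 15% higher and 12.5% lower). Palmul-tang gave 23 higher and 41 lower (32.1%, 17.3% and 14.8%). Sibjeondaebo-tang gave 14 higher and 81 lower (39.6%, 20.5% and 19.1%). The share of antisense genes called was 23.9%, 20.5%, 23.9% and 35.4%, below that of all genes in each. The antisense genes also had a lower median level, 2.81 CPM against 13.6 CPM for all tested genes. The part of this in the shares called, here and below, was not tested. Medians of the log2 fold change were -0.03, -0.05, -0.07 and -0.17, against -0.01, -0.00, -0.01 and -0.02 for all genes. These comparisons share the 3 vehicle libraries, so their values are set side by side and not taken as separate evidence. With only the groups compared in the fit, the total was 18 in place of 64 for Sagunja-tang (7 higher and 11 lower), where the calls over all genes went from 6391 to 2182, and 35 in place of 55 for Samul-tang (14 higher and 21 lower). The total was 26 in place of 64 for Sagunja-tang without its library 2, 21 and 33 in place of 55 for Samul-tang without its library 2 or 3, and 39 in place of 64 for Palmul-tang without vehicle library 3. For Sibjeondaebo-tang it stayed at 77 to 86 when any single library was left out.

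At the low dose, Sagunja-tang had 21 antisense genes higher and 18 lower than vehicle, where 21.9% of all genes were called (11.1% higher and 10.7% lower). Samul-tang had 18 higher and 12 lower (17.6%, 8.89% and 8.71% of all genes), Palmul-tang 20 and 18 (20.3%, 10.6% and 9.74%) and Sibjeondaebo-tang 22 and 14 (22%, 11.1% and 10.9%). At the medium dose, Sagunja-tang had 17 higher and 14 lower (16.4%, 8.4% and 8.05% of all genes), Samul-tang 14 and 19 (20.1%, 10.9% and 9.27%), Palmul-tang 15 and 17 (20%, 10.3% and 9.63%) and Sibjeondaebo-tang 15 and 25 (26%, 14% and 12%). With only the groups compared, the total was 18 in place of 31 for medium-dose Sagunja-tang, 15 in place of 32 for medium-dose Palmul-tang and 24 in place of 38 for low-dose Palmul-tang. Single libraries moved each of these 8 totals by more than 1.5 times. Without vehicle library 2, the low-dose totals were 24 for Sagunja-tang, 15 for Samul-tang, 25 for Palmul-tang and 23 for Sibjeondaebo-tang, and the medium-dose total was 20 for Sagunja-tang. Without vehicle library 3 they were 24, 16, 21 and 18 at the low dose and 15, 17, 17 and 26 at the medium dose. Sagunja-tang gave 15 or 19 without its low library 2 or 3, and 3 or 14 without its medium library 2 or 3. Samul-tang gave 8 or 7 without its low library 2 or 3, and 7 without its medium library 2. Palmul-tang gave 18 without its low library 2, and 21 or 20 without its medium library 1 or 2. Sibjeondaebo-tang gave 18 without its low library 3 and 26 without its medium library 3.

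PXN-AS1 was called higher than vehicle at each dose of each extract and was not called between doses. It lies across the 3′ end of the gene of the focal adhesion protein paxillin. It had 2.96, 2.15 and 2.64 CPM in vehicle and 3.70 to 7.88 CPM in the 30 extract libraries. Vehicle and extract libraries did not overlap. At the high dose its log2 fold change was 1.305 ± 0.24, 0.84 ± 0.24, 1.03 ± 0.22 and 1.22 ± 0.21 (SE) for the 4 extracts in that order, and at the low dose 1.28 ± 0.23, 1.09 ± 0.23, 0.94 ± 0.22 and 1.02 ± 0.22. Between high and low dose it was 0.02 ± 0.10 on average. PXN was lower than vehicle in the same comparisons, with -0.30 to -0.20 at the high dose, and shares 918 exon bases with PXN-AS1. The Samul-tang call of PXN-AS1 was lost without its high library 2 (0.67, adjusted p = 0.136) or vehicle library 2 (0.71, adjusted p = 0.0558).

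RPL30-AS1, inside the gene of a ribosomal protein, had 1.58, 1.36 and 1.27 CPM in vehicle and 1.80 to 3.34 CPM in the extracts. Its high-dose changes were 1.04 ± 0.19, 0.77 ± 0.19, 0.54 ± 0.18 and 0.75 ± 0.17. The call for Samul-tang was lost without its high library 3 (0.62, adjusted p = 0.0666). That for Palmul-tang was lost without its high library 1 (0.38, adjusted p = 0.138), vehicle library 2 (0.52, adjusted p = 0.0618) or vehicle library 3 (0.49, adjusted p = 0.0744). RPL30 was called in none of the 4. PRPF31-AS1, inside the gene of a splicing factor, and ITGB8-AS1, at the start of an integrin gene, were each called higher at the high dose in 3 of the 4 extracts. PRPF31-AS1 lost the Samul-tang call without its high library 3 (0.63, adjusted p = 0.0654). ITGB8-AS1 lost the Sagunja-tang call without its high library 2 (0.52, adjusted p = 0.139). It lost the Sibjeondaebo-tang call without high library 1 (0.40, adjusted p = 0.112), high library 2 (0.47, adjusted p = 0.05004), vehicle library 2 (0.43, adjusted p = 0.0970) or vehicle library 3 (0.42, adjusted p = 0.0902). That call was also lost without the filter (0.46, adjusted p = 0.114) and with DESeq2 (0.45, adjusted p = 0.0888). So it was with only the groups compared (0.46, adjusted p = 0.0617). With only the groups compared, the Sagunja-tang calls of ITGB8-AS1 (0.61, adjusted p = 0.0799) and PRPF31-AS1 (0.71, adjusted p = 0.0734) were lost too. In all, 6 genes were called higher at the high dose of all 4 extracts: MAPKAPK5-AS1, KRT10-AS1, MNX1-AS1, TTC28-AS1, PXN-AS1 and RPL30-AS1. They are 2.24% of the 268, against 8.96% of all genes called higher in all 4, in comparisons that share the vehicle libraries. None of the 6 kept its calls in all 4 extracts under every alternative: 3 kept them with only the groups compared, 2 without the high-dose Samul-tang library 2 and 2 without its library 3. KRT10-AS1 is one of the 2 genes annotated as protein-coding. The higher mitochondrial share and other leading code of the vehicle libraries move with this contrast, and their part in it was not tested.

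LMNTD2-AS1, inside a lamin tail domain gene, and SLC9A3-AS1 were also higher than vehicle, but not at the high dose of Sibjeondaebo-tang. LMNTD2-AS1 had 1.04, 1.32 and 1.07 CPM in vehicle, 2.20, 2.21 and 2.72 CPM at low-dose and 0.796, 0.983 and 1.09 CPM at high-dose Sibjeondaebo-tang. The high-dose libraries lay below the low-dose ones and reached into the vehicle range. Low dose against vehicle gave 1.00 ± 0.17 (SE), high dose against vehicle -0.24 ± 0.20, which did not pass, and high against low -1.24 ± 0.17. In the high doses of Sagunja-tang, Samul-tang and Palmul-tang it was higher than vehicle by 0.78, 0.89 and 0.63. The Sagunja-tang call was lost without its library 2 (0.65, adjusted p = 0.0743).

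Lower than vehicle at the high dose of all 4 extracts were 16 antisense genes, or 5.97% of the 268, against 7.11% of all genes. Among the 5 that kept all 4 calls under every alternative were IGFL2-AS1, KLRK1-AS1, HOXA11-AS and NOP14-AS1, the last 2 of which were named after their values were seen. Of the 16, 7 kept all 4 calls with only the groups compared, 8 without vehicle library 3, and 9 without the high-dose library 2 of Sagunja-tang or that of Samul-tang. RAB33B-AS1, GASK1B-AS1, BAZ2B-AS1 and HOXA-AS2 also belonged to the 16 and lost calls under some alternatives. RAB33B-AS1 starts near the start of RAB33B, a gene of a Golgi-associated small GTPase, and was lower than vehicle at low, medium and high dose of each extract. It had 8.43, 8.63 and 10.5 CPM in vehicle and 5.41, 5.13 and 5.28 CPM at high-dose Sibjeondaebo-tang, the lowest values in the series (-0.77 ± 0.10 SE). Its high-dose call in Sagunja-tang was lost without high library 3 (-0.07, adjusted p = 0.697), without vehicle library 3 (-0.16, adjusted p = 0.288), with only the groups compared (-0.27, adjusted p = 0.269), with the gene length trend removed (-0.21, adjusted p = 0.147), without the filter (-0.27, adjusted p = 0.0539) and with DESeq2 (-0.27, adjusted p = 0.0613). BAZ2B-AS1 and HOXA-AS2 each lost the calls in Sagunja-tang, Samul-tang and Palmul-tang with DESeq2, without the filter and without vehicle library 3, and under other alternatives as well. With DESeq2 their adjusted p in those 3 extracts was 0.0528 to 0.0610 and 0.0643 to 0.108. SPACA6-AS1 was called in Palmul-tang (-0.78 ± 0.21) and Sibjeondaebo-tang (-1.16 ± 0.22). CERS6-AS1, across the 3′ end of a ceramide synthase gene, varied widely in vehicle, at 23.0, 34.6 and 44.6 CPM. Its high-dose changes were -0.64 ± 0.27 in Sagunja-tang, which did not pass, -1.24 ± 0.28 in Samul-tang, -0.71 ± 0.23 in Palmul-tang and -0.90 ± 0.24 in Sibjeondaebo-tang, and in Samul-tang the call was lost without its high library 2 (-0.86, adjusted p = 0.0753). GASK1B-AS1 lost the call against vehicle in Sagunja-tang without its high library 2 (-0.38, adjusted p = 0.237) and in Samul-tang without its high library 2 (-0.49, adjusted p = 0.156). Without vehicle library 3 it was lost in Sagunja-tang (-0.48, adjusted p = 0.0586), Samul-tang (-0.39, adjusted p = 0.141) and Palmul-tang (-0.43, adjusted p = 0.0636).

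**Figure D4:**
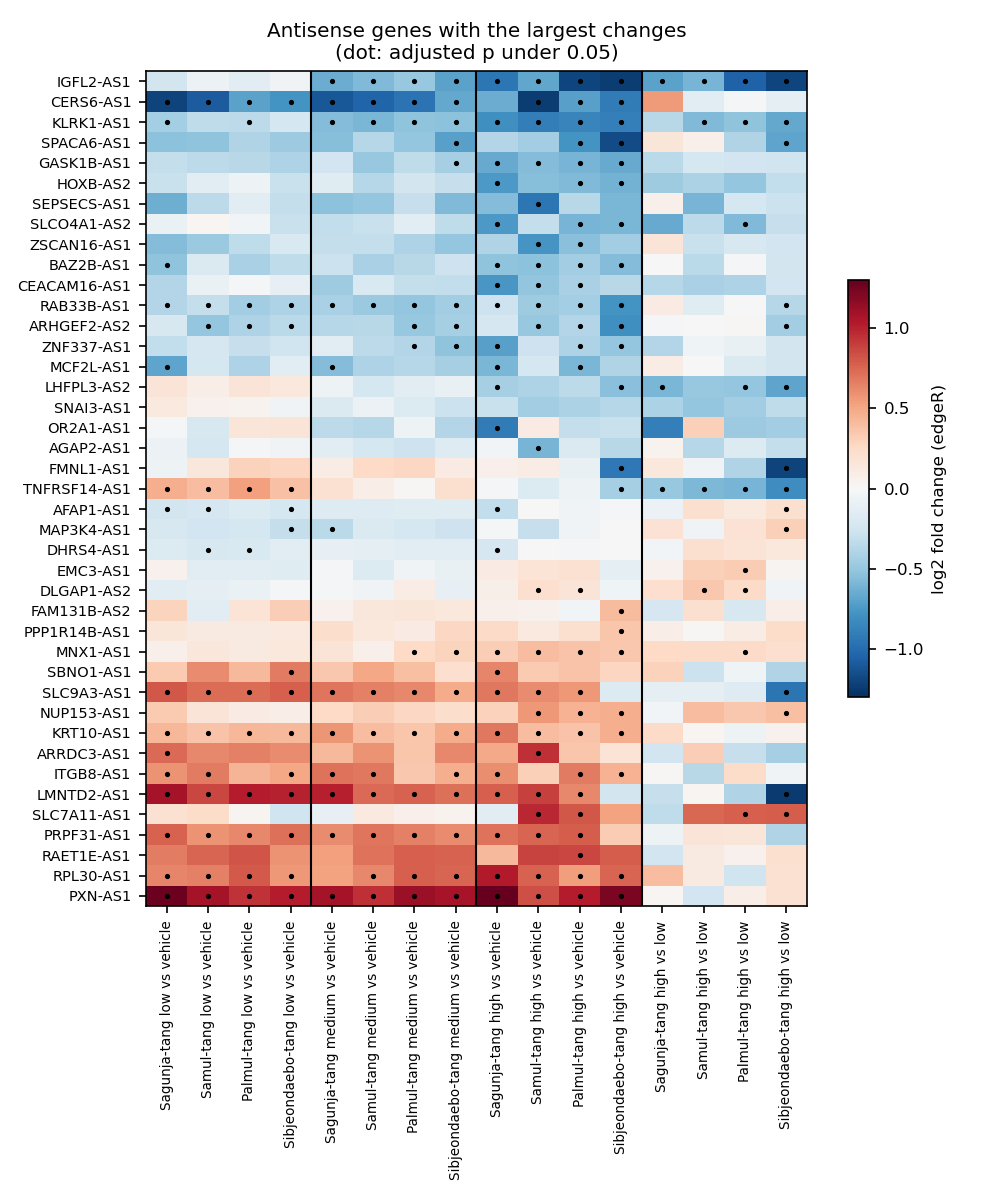
Log2 fold change (edgeR, colour) of 41 antisense genes with the largest called changes, in rows, for low, medium and high dose against vehicle and for high against low dose of each extract, in columns. A dot marks an adjusted p under 0.05; PXN-AS1 at the bottom is called higher at every dose, and IGFL2-AS1 at the top is called lower at medium and high dose of all 4 extracts.

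Of 38 antisense RNAs listed for having been described in other work, 36 were in the table and 22 were among the 268. Averaged over the extracts, 1 of the 22 was higher with dose, AFAP1-AS1, and 7 were lower (31.8%), with a median of -0.06. That share is near the 31.3% of all 268 antisense genes, and 18.9% of all genes were lower. Among the 7 were HOXA-AS2, HOXA-AS3, TPT1-AS1 (-0.19 ± 0.05 SE), LOXL1-AS1 (-0.41 ± 0.08), GATA6-AS1 (-0.28 ± 0.11) and NNT-AS1 (-0.10 ± 0.04). OIP5-AS1, at -0.02 ± 0.02, and FGD5-AS1, at -0.02 ± 0.02, were not called. CDKN2B-AS1, the antisense RNA of a cyclin-dependent kinase inhibitor locus, was at -0.15 ± 0.11 and was not called.

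Genes of nuclear RNA decay, which degrades many antisense and promoter-upstream transcripts through the RNA exosome, were looked at as a list of 18. Averaged over the extracts, 12 were higher and 1 lower at the high than at the low dose, with a median of 0.12, where 19.6% of all genes were higher and 18.9% lower. In Sibjeondaebo-tang 9 were higher and 1 lower, with a median of 0.16, where 15.5% of all genes were higher and 14.3% lower. Of 10 genes of nonsense-mediated decay, 3 were higher on average and 7 were not called, with a median of 0.02, a share called of 30% against 38.5% of all genes. A link of these values with the antisense genes was not tested.

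Finally, each antisense gene was set against its sense gene. Of 263 pairs, the sense gene passed the filter on low counts in 254 and fell short in 9. In the averaged dose contrast, both genes were lower in 26 of the 254 pairs and both higher in 3, the antisense gene was lower and the sense gene higher in 12, and the reverse was called in 0 pairs by edgeR. In 36 pairs the antisense gene was lower and the sense gene not called, and in 5 it was higher and the sense gene not called. Pairs in which only the sense gene was called numbered 73. Among all genes, 19.6% were called higher and 18.9% lower in this contrast. How many joint calls unrelated genes would give was not tested, so these counts do not show that pairs move together. The 12 opposite pairs included IGFL2-AS1, SLCO4A1-AS2 and PSMA3-AS1. Across pairs, Pearson's r of the 2 log2 fold changes was 0.26, a description over genes that share the same libraries. It was 0.41 (Spearman's rho 0.30) over the 204 pairs whose exons overlap and -0.14 (rho 0.10) over the 50 without exon overlap. Reads of shared exons, which cannot be told apart with certainty here, move with the first of these values, and their part in it was not tested.

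SLCO4A1-AS2 lies inside SLCO4A1, the gene of an organic anion transporter, without exon overlap. It had 2.13, 2.50 and 2.41 CPM at low-dose and 1.99, 1.26 and 1.35 CPM at high-dose Palmul-tang, while SLCO4A1 had 71.3, 64.6 and 62.8 CPM and then 82.8, 75.4 and 75.2 CPM. High and low dose did not overlap for either gene, and they moved apart. SLCO4A1 rose by 0.30 ± 0.03 (SE) on average and was called in each of the 4 extracts. PSMA3, the gene of a proteasome subunit, rose by 0.21 ± 0.04 and PSMA3-AS1 fell by 0.16 ± 0.04.

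**Figure D5:**
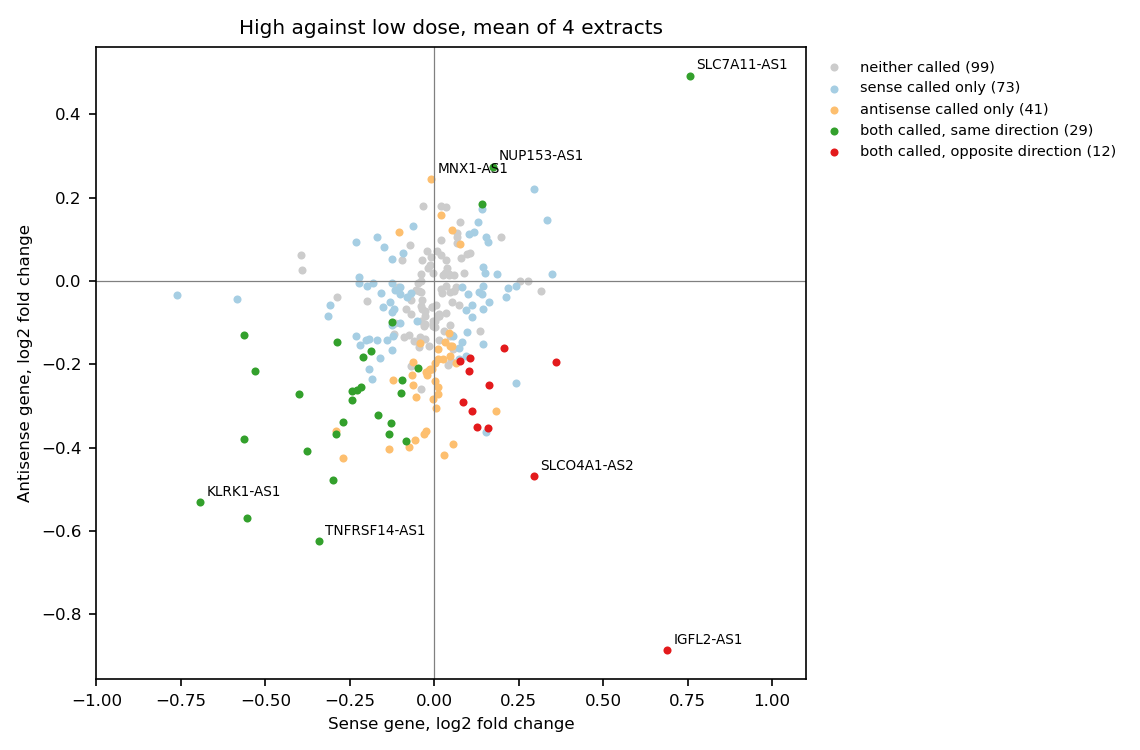
Each point is 1 of 254 pairs, with the log2 fold change (high against low dose, mean of 4 extracts) of the sense gene on the x axis and of the antisense gene on the y axis, coloured by which of the 2 was called. Both were called in the same direction in 29 pairs and in opposite directions in 12, with IGFL2-AS1 farthest out. Among all genes, 19.6% were called higher and 18.9% lower in this contrast.

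The ratio of antisense to sense level was then tested pair by pair, as log2 of (antisense count + 1) over (sense count + 1), averaged over the extracts, with an exact two-sided permutation of the dose labels within extracts (14400 relabelings). Of 254 pairs tested, 82 had an unadjusted p under 0.05, and the median change was -0.06. The ratio was lower at the high dose in 63 of the 82 and higher in 19. In the same contrast, edgeR called 38.5% of all genes. The ratio test was run on these pairs only, so the count of 82 has no share over other gene pairs beside it. The count was 42 without the libraries numbered 3. IGFL2-AS1 to IGFL2 had the largest fall of the ratio, a change of -1.58 on the log2 scale, at an exact p of 0.000139, the smallest this test can give. SLCO4A1-AS2 (-0.80), PITX1-AS1 (-0.61), SDCBP2-AS1 (-0.56), MAP3K14-AS1 (-0.54) and SH3BP5-AS1 (-0.51) followed, each lower in all 4 extracts.

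Rises of the ratio came in part from the sense gene. For EPB41L4A-AS1 the ratio rose by 0.55 (exact p = 0.000694), while its own change was -0.04 ± 0.04 (SE) and that of EPB41L4A, a gene of a cytoskeletal band protein, was -0.58 ± 0.10. The largest rise, 0.72 for FAM131B-AS2, concerns the pair on the same strand. TTC28-AS1 (0.43), TSPOAP1-AS1 (0.42), PRR34-AS1 (0.39, exact p = 0.189) and VPS9D1-AS1 (0.32) were the others among the 6 largest. For SLC7A11-AS1 the ratio to SLC7A11 changed by -0.30 (exact p = 0.116), and for MNX1-AS1 to MNX1 it rose by 0.25 (exact p = 0.000694).

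Within pairs, levels moved together only weakly from library to library. Over 254 pairs the median Pearson's r of antisense and sense log2 CPM across the 33 libraries was 0.0815, with quartiles of -0.151 and 0.287, and 20 pairs were above 0.5 and 8 below -0.5. With the group means removed, the median was 0.00746. For the 17 pairs in which the sense exons cover 50% or more of the antisense exons it was 0.00979. Across the 33 libraries, the medians were 0.0842 for the 204 pairs whose exons overlap and 0.0777 for the 50 without exon overlap. With the group means removed, they were -0.00908 and 0.0483. These values are descriptions over libraries that share depth and treatment.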

How the data were processed

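RNA of HT29 cells was read with a directional mRNA kit as 100 bp paired-end reads, per the labels' protocols. The authors deposited expected counts per gene; reads were trimmed with Trim Galore 0.6.5, checked with FastQC 0.11.9, aligned with STAR 2.7.3a and counted with RSEM 1.3.3, per the submitters' processing notes. The strand setting of the counting is not given in the sources used here. Of 273 columns, 240 match no sample of these groups and were not used. Expected counts, 9.45% of which were not whole, were rounded for the tests. Symbols were found for 56558 of 60675 rows, and positions come from GENCODE 29 (GRCh38, 57055 rows). Promoters come from RefSeq (GRCh38.p14).

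CPM were computed from library totals of 28.6 to 49.1 M (M for 1000000). Genes passing filterByExpr (minimum count 10) were fitted over 13 groups and 33 libraries with TMM scaling and the quasi-likelihood test of edgeR 4.0.16 (R 4.3.3), with Benjamini-Hochberg adjustment over all 17432 genes and a threshold of 0.05. Errors are standard errors, the log2 fold change divided by the root of F. Ratios of antisense to sense counts were tested by exact permutation in Python 3.11.15. Alternatives were other size factors, no filter, a replicate block, removal of a gene length trend, fits of only the groups compared, DESeq2 1.42.0, a pseudocount of 5, leaving out libraries, TMM sizes for the summed levels and, for the number of genes only, other CPM limits.

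The genes named are those of highest level, those nearest the CPM limit and described antisense RNAs. Named as well are the 8 largest called rises and falls per high dose against vehicle with libraries that do not overlap. For the averaged dose contrast, the 8 largest called rises and falls were taken with no condition on overlap. The sense genes of these rises and falls and the 6 pairs with the largest ratio change in each direction were named too. Genes with a dose effect that differed between extracts were added. The genes and lists were chosen with earlier results of these data known. A gene that met this rule is not reported here.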

Additional observations from a re-analysis of the deposited data

Results flagged for a closer look

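The change from low to high dose differed between Sibjeondaebo-tang and Palmul-tang, by a test of the difference itself (edgeR's quasi-likelihood interaction test, adjusted over all genes), for 7 antisense genes. None of the alternatives described below was run on this test. The difference, as log2 change in Sibjeondaebo-tang minus that in Palmul-tang, was -0.86 ± 0.18 (SE, adjusted p = 0.00942) for PTOV1-AS2, which changed by 0.14 in Palmul-tang and -0.72 in Sibjeondaebo-tang. It was -0.79 ± 0.13 (adjusted p = 0.000681) for SLC9A3-AS1 and -0.64 ± 0.15 (adjusted p = 0.0201) for AP1G2-AS1. SLC25A25-AS1 differed by -0.46 ± 0.07 (adjusted p = 0.000128) and GABPB1-AS1 by -0.42 ± 0.06 (adjusted p = 0.000264). TMEM147-AS1 differed by -0.40 ± 0.10 (adjusted p = 0.0414), with 0.08 in Palmul-tang and -0.32 in Sibjeondaebo-tang. GTF3C2-AS2 differed by -0.39 ± 0.09 (adjusted p = 0.0172), with -0.07 and -0.46.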

How the results depend on the processing

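Across other size factors, no filter, the replicate block, removal of a gene length trend, fits of only the groups compared and DESeq2, the averaged dose contrast gave 83 to 98 called antisense genes against 93. Without the filter, Sagunja-tang and Samul-tang had 11 and 11 antisense genes called between high and low dose, in place of 7 and 7. With only the groups compared in the fit, those counts were 0 and 12, the high dose against vehicle gave 18 for Sagunja-tang and 35 for Samul-tang, the medium dose gave 18 for Sagunja-tang and 15 for Palmul-tang, and the low dose gave 24 for Palmul-tang. A limit of 0.5 CPM would give 361 genes and one of 2 CPM would leave 177 of the 268; no test was repeated at these limits. With TMM effective library sizes, chosen after seeing the data, the difference in summed level between low dose and vehicle reversed, to -6.45, -18.6, -17.5 and -15.4 for the 4 extracts in the order Sagunja-tang, Samul-tang, Palmul-tang, Sibjeondaebo-tang, from 92.1, 61.1, 49.7 and 49.1 CPM. The difference between high and low dose kept its direction, at -47.7, -21.3, -49.9 and -177.1 in place of -88.1, -60.9, -104.6 and -266.03 CPM. Leaving out 1 library gave 26 to 70, 21 to 53, 39 to 52 and 77 to 86 antisense genes at the high dose against vehicle for the extracts in the order Sagunja-tang, Samul-tang, Palmul-tang, Sibjeondaebo-tang. It gave 3 to 33, 7 to 33, 17 to 38 and 26 to 43 at the medium dose, and 15 to 43, 7 to 30, 18 to 39 and 18 to 36 at the low dose. Between high and low dose it gave 0 to 36, 2 to 5, 10 to 16 and 57 to 73. Leaving out a replicate number gave 53 to 77 for the averaged contrast and 42 to 68 pairs with a changed ratio; where a group is left with 1 library, it is assumed to vary like the others. Without the high-dose Sagunja-tang library 2, an alternative chosen after seeing the data, the averaged contrast gave 87. The causes of these shifts were not tested. Of 896 alternative values for 80 results on named genes, 800 kept direction and call, 96 kept the direction and lost the call, and 0 turned.

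Whether replicate numbers pair the libraries was not settled. Deviations of same-numbered libraries correlated at -0.169 to 0.172 between groups, and libraries with different numbers were not compared. With a replicate block, the calls over all genes in the averaged contrast went from 6713 to 7042. With the replicate block, the averaged contrast gave 98 antisense genes, Sibjeondaebo-tang 84 and Palmul-tang 24 between high and low dose, and the ratio test 77 pairs.

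At 1 CPM a gene had 28.6 to 49.1 counts in a library, so small changes of the lowest genes are not detectable at this depth. Counts for Sagunja-tang and Samul-tang rest on 2 libraries per dose.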
